A study of Mus musculus with 12 samples.

Results

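The enzymes that copy and repair mitochondrial DNA (mtDNA) were measured in mouse hearts as a set of 10 genes, Polg, Polg2, Twnk, Ssbp1, Mgme1, Top1mt, Top3a, Rnaseh1, Primpol and Lig3. They were chosen by name for their roles, with earlier results of these data known. Each matched exactly 1 of the 54751 features in the count table. Total RNA came from hearts of C57BL/6N mice aged 52 weeks, from libraries primed with random hexamers after removal of cytoplasmic ribosomal RNA. The 3 knockout libraries carry loxP-flanked Rexo2 alleles and in addition an allele labelled +/Ckmm. The 3 control libraries, titled WT, carry the loxP-flanked alleles without it, so both groups share the floxed gene. Ckmm names the muscle creatine kinase gene, a common driver of Cre recombinase in striated muscle, and heart cells outside the muscle lineage would then keep Rexo2. The labels do not say that each library is a separate animal, so p-values measure the spread between these libraries, which may be partly technical. Libraries of mitochondrial RNA ends, 3 per group, are not analysed here.

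A heart muscle cell holds many copies of mtDNA and keeps replicating them although the cell itself rarely divides. The mitochondrial RNA polymerase makes short RNAs that prime DNA synthesis by DNA polymerase gamma, behind the helicase Twinkle and on strands coated by the mitochondrial single-stranded DNA-binding protein. RNase H1 removes the primers, the nuclease MGME1 trims the flaps, DNA ligase III seals the nicks and topoisomerases relax and separate the circles. Rexo2 encodes an oligoribonuclease that degrades dinucleotides and other very short RNAs, which can themselves start transcription in mitochondria, and the title of the series concerns that regulation.

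Short stretches of the promoters are given first because they show a sequence feature that some of the genes share and that their choice did not use. RefSeq promoters (GRCm38.p6) were at hand for 7 of the 10 genes, and the 250 bases before each annotated start were searched on both strands. The letters CCGGAAG or their complement CTTCCGG, the core recognised by ETS family factors, were found in 4 of the 7 genes, namely Polg, Polg2, Twnk and Ssbp1, and not in Mgme1, Primpol or Lig3. Of the 10745 tested genes with such a promoter 14.9% held these letters, as did 6.91% of all 32851 windows. The palindrome of the respiratory factor NRF1, searched as GCGC, any 2 bases and GCGC, was in none of the 7, against 11.5% of the tested genes. AAGATGGC, or GCCATCTT, a core of the YY1 motif, was found in Mgme1 alone of the 7, against 2.35% of the tested genes. That match also lies inside the span of the adjacent gene Snx5 (chr2:144250123-144270902), on the opposite strand. The Twnk matches lie just beyond the 5′ end of Mrpl43 (chr19:45005014-45006442), also on the opposite strand. The first Twnk stretch printed below runs into the span of Mrpl43. The motifs do not overlap one another in these stretches, and a match is a description of the letters and not a binding site. The annotated start behind a window need not be the 5′ end of the gene as given further on, since RefSeq lists several starts. It lay 1638 bases inside the gene for Polg, 895 for the Twnk window that held both matches and 54 for Ssbp1, and at the 5′ end for Polg2 and Mgme1. The stretches below run 5′ to 3′ on the gene's strand, with the matched letters in capitals.
Polg, chr7:79466293-79466322, minus strand: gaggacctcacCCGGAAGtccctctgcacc
Polg2, chr11:106779548-106779577, minus strand: cgggtgacgctCTTCCGGgggcgtggtcta
Ssbp1, chr6:40471410-40471439, plus strand: ggctccgtgcgCCGGAAGcgagccgctggc
Twnk, chr19:45006437-45006466, plus strand: ctaaccggtgaCTTCCGGttccggggttgt
Twnk, chr19:45006481-45006510, plus strand: ggagagttttgCTTCCGGagtcaccgcgag
Mgme1, chr2:144270827-144270856, plus strand: agccagagtccAAGATGGCgagcggcggtg

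The libraries held between 41979163 and 50764023 reads. Reads on mtDNA features made up 71.5%, 71.9% and 71.5% of knockout 492, 499 and 501. In control 490, 498 and 502 they made up 69.4%, 70.0% and 69.5%, below every knockout library. The depth for nuclear genes was thus 11966300 to 15556993 reads. Rexo2 itself had 274, 288 and 314 normalised counts in knockout libraries 492, 499 and 501, against 329.7, 368 and 293 in control libraries 490, 498 and 502, with overlap. Its limma log2 fold change was -0.17 with a 95% interval from -0.39 to 0.04, and it was -0.094 without control 498. Since reads are summed over the whole gene and no source used here names the deleted exons, Rexo2 does not check the labels. All 8 cardiomyocyte markers were measured in all libraries, with summed levels of 537320 to 561930 normalised counts in knockout and 548380 to 578010 in control libraries. Fibroblast, endothelial, macrophage, smooth muscle and erythroid markers were present too, with sums that overlapped between the groups, while adipocyte markers summed to at most 5.64 counts and lymphocyte markers to at most 39.7. Single markers without overlap were Adgre1 of macrophages, Mb of cardiomyocytes and Pdgfra of fibroblasts, where 9.51% of all features showed none. Their limma log2 fold changes were 0.35 (interval from 0.057 to 0.65), -0.096 and -0.082, and none was called. In whole-heart RNA, fewer cells of a type and less RNA per cell cannot be told apart. Control 490 stood apart on the first principal component, at -30.1 where the others lay between -5.63 and 16.7. Without it, 0 of the 10 genes described here were called and Lig3 alone of them changed sign, to 0.0065.

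None of the 10 genes was called between knockout and control hearts. The test was limma on log2(normalised count + 1), adjusted by Benjamini-Hochberg over the 18250 features averaging 10 counts or more, and its background was low, with 0.0219% of features called, all of them lower in knockout. All 10 genes passed the filter, 0 had an unadjusted limma p under 0.05 where 3.70% of all features did, and the limma adjusted p was 1.00 for each. The groups overlapped in all 10, where 9.51% of features showed no overlap. edgeR on the recovered reads also called 0 of the 10, with 0 at an unadjusted p under 0.05 (3.78% of all features), and it called 0.0274% of features. DESeq2 on the same reads called 0 of the 10 but gave an adjusted p only to Polg, Twnk and Lig3. It called 0.437% of the 7550 features with an adjusted p. The authors' deposited table called 0.437% of the 7550 features with an adjusted p, and of the 10 genes gave one only to Polg, Twnk and Lig3, each at 1.00. The median log2 fold change of the 10 was -0.0080, with 3 above and 7 below 0, beside a median of 0.00056 over all tested features. That median rested on single libraries, at -0.11 without knockout 492 and 0.025 without knockout 501.

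**Figure D1:**
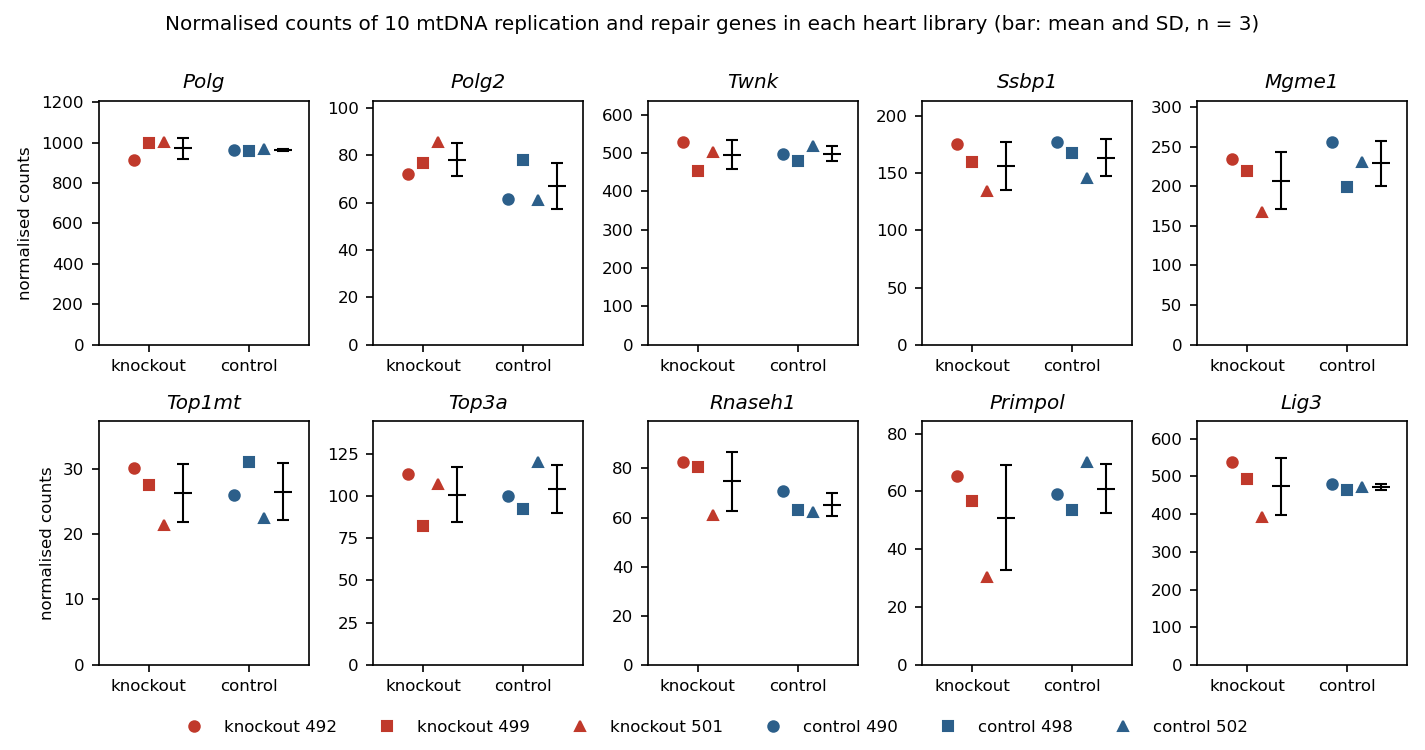
Normalised counts (vertical axes, each from 0) of the 10 genes in the 3 knockout libraries (red) and the 3 control libraries (blue), with the mean and SD of each group beside them. The groups overlap in every panel, and knockout 501 (red triangle) is the lowest library for 6 genes.

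Polymerase gamma showed the tightest measurement of the set in its catalytic subunit. Polg (ENSMUSG00000039176.17, chr7:79446231-79467911, GRCm38.p6), which also carries the proofreading exonuclease, had 912, 996 and 1005 normalised counts in knockout 492, 499 and 501, against 963, 957 and 967 in control 490, 498 and 502. The knockout libraries lay on both sides of the controls, which differed among themselves by only 0.51% (coefficient of variation, CV), less than the 3.21% that read counting alone would give. Its log2 fold change was 0.012 with a limma SE of 0.061 and a 95% interval from -0.12 to 0.14, or 0.92- to 1.10-fold.

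Polg2 (ENSMUSG00000020718.12, chr11:106768204-106779537), the accessory subunit that helps the polymerase stay on its template, had 71.9, 76.7 and 85.7 normalised counts in knockout 492, 499 and 501, against 61.7, 78.0 and 61.1 in control 490, 498 and 502. A pair of controls lay below all knockout libraries, and control 498 lay above all but knockout 501. The log2 fold change was 0.23 with a limma SE of 0.17, the largest positive one among the 10, and the interval from -0.13 to 0.58 was wide. Without control 498 it was 0.34, and without knockout 501 it was 0.16. The gene was covered by 436 reads over the 6 libraries, against 5839 for Polg.

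Twnk (ENSMUSG00000025209.4, chr19:45005663-45012764), which encodes the helicase Twinkle, had 530.3, 454 and 504 normalised counts in knockout 492, 499 and 501, against 497, 479 and 519 in control 490, 498 and 502. The knockout libraries held both the highest and the lowest value. The log2 fold change was -0.0082 with a limma SE of 0.079 and an interval from -0.18 to 0.16, or 0.88- to 1.12-fold. The 5′ end of Twnk overlaps Mrpl43, a mitochondrial ribosomal protein gene on the opposite strand, over 780 bases, and no source used here says whether strand was used in counting. Mrpl43 averaged 457 ± 14.1 in knockout and 458 ± 33.3 normalised counts in control libraries (SD, n = 3 each).

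Ssbp1 (ENSMUSG00000029911.14, chr6:40471414-40481823), the mitochondrial single-stranded DNA-binding protein, had 176, 160.0 and 134 normalised counts in knockout 492, 499 and 501, against 178, 168 and 146 in control 490, 498 and 502. Each group had 1 library well below its others, knockout 501 and control 502. Its log2 fold change was -0.067 with a limma SE of 0.13 and an interval from -0.35 to 0.21, and it was 0.039 without knockout 501.

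**Figure D2:**
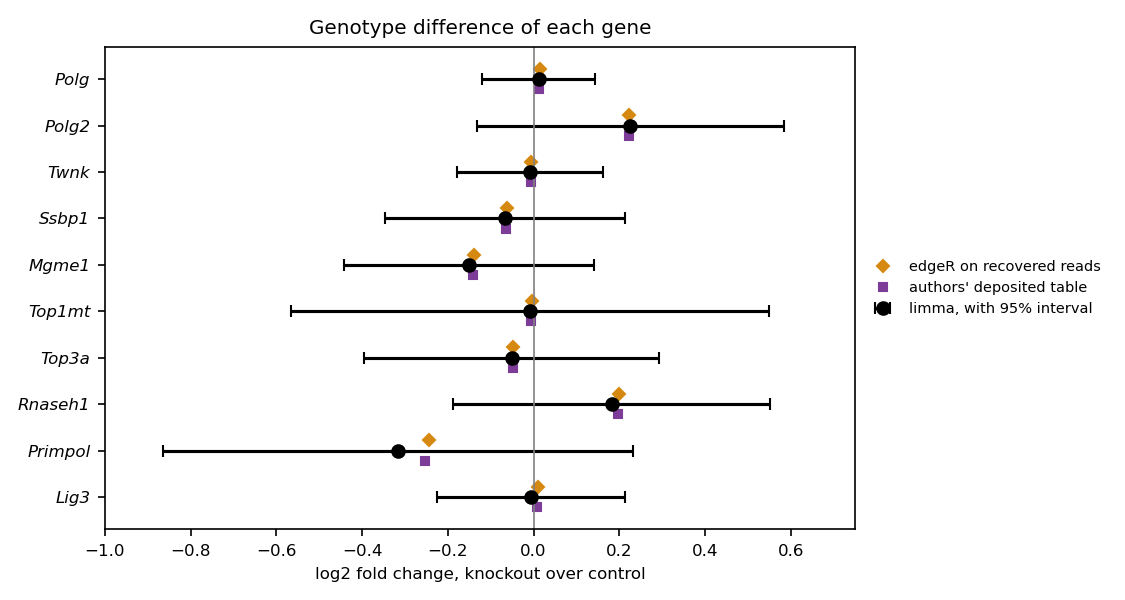
Log2 fold change of knockout over control (horizontal axis) for each gene, by limma with its 95% interval (black), by edgeR on the recovered reads (orange) and from the authors' deposited table (purple). All 10 intervals include 0, and they are narrowest for Polg (-0.12 to 0.14) and widest for Top1mt (-0.57 to 0.55) and Primpol (-0.86 to 0.23).

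Among the nucleases and topoisomerases that finish replication, the knockout CV was above that of read counting for Mgme1, Rnaseh1 and Top3a, and not for Top1mt. It was 16.0% for Rnaseh1 and for Top3a, where counting gives 11.9% and 9.88%. Each CV rests on 3 libraries, the counting value uses the mean reads of all 6, and the excess was not tested. Mgme1 (ENSMUSG00000027424.11, chr2:144270904-144281227), which trims single-stranded DNA flaps and takes part in the breakdown of linear mtDNA, had 235, 219.7 and 167 normalised counts in knockout 492, 499 and 501, against 256, 199 and 231 in control 490, 498 and 502. Knockout 501 lay below all other libraries, and the other two knockout libraries lay within the range of the controls. The log2 fold change was -0.15 with a limma SE of 0.14 and an interval from -0.44 to 0.14, and without knockout 501 it was -0.0029. The CV was 17.2% in knockout and 12.5% in control libraries, where read counting gives 6.73%.

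Rnaseh1 (ENSMUSG00000020630.9, chr12:28649601-28659592), whose product digests RNA paired with DNA, had 82.7, 80.5 and 60.9 normalised counts in knockout 492, 499 and 501, against 70.6, 63.0 and 62.1 in control 490, 498 and 502. Knockout 492 and 499 lay above all controls and knockout 501 below all of them. Between the groups the log2 fold change was 0.18 with a limma SE of 0.17 and an interval from -0.19 to 0.55. Without knockout 501 it was 0.32, still with a limma adjusted p of 1.00.

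Top1mt (ENSMUSG00000000934.9, chr15:75657033-75678800), the topoisomerase that relaxes supercoils in mtDNA, was the least covered of the 10, with 160 reads in all. It had 30.1, 27.5 and 21.4 normalised counts in knockout 492, 499 and 501, against 25.9, 31.0 and 22.4 in control 490, 498 and 502. The groups covered nearly the same range, and the spread within each, a CV of 16.8% in knockout and 16.4% in control libraries, was below the 19.4% of read counting. The interval from -0.57 to 0.55 allowed anything from 0.68- to 1.46-fold, so a moderate change was not detectable at this depth.

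Top3a (ENSMUSG00000002814.15, chr11:60738209-60777365), which separates linked DNA circles in mitochondria and also acts in the nucleus, had 113, 82.4 and 107 normalised counts in knockout 492, 499 and 501, against 100.1, 92.1 and 120.1 in control 490, 498 and 502. Knockout 499 was the lowest and control 502 the highest, and the other libraries were interleaved. Its fitted log2 fold change was -0.051 with a limma SE of 0.16 and an interval from -0.39 to 0.29. It was 0.086 without knockout 499 and 0.056 without control 502.

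Lig3 and Primpol serve the nucleus as well as mitochondria, and a count per gene does not divide the forms. The same holds for Rnaseh1 and Top3a, whose proteins also reach both compartments. Lig3 (ENSMUSG00000020697.16, chr11:82781109-82804274), the only DNA ligase of mitochondria in mammals, had 539, 493 and 391 normalised counts in knockout 492, 499 and 501, against 481, 465 and 471 in control 490, 498 and 502. Knockout 492 and 499 lay above all controls and knockout 501 lay below all of them. The group means were nearly equal, at 475 ± 75.5 in knockout and 472 ± 7.76 in control libraries (SD, n = 3 each), and the log2 fold change of -0.0061 had a limma SE of 0.10 and an interval from -0.22 to 0.21. Without knockout 501 it was 0.13, with a limma adjusted p of 1.00, and it was 0.0098 by edgeR. The 3′ end of Lig3 shares 456 bases with Rffl, on the opposite strand, which averaged 143 normalised counts over all libraries.

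Primpol (ENSMUSG00000038225.15, chr8:46575579-46617227), a primase-polymerase that can restart DNA synthesis beyond a lesion, had 65.5, 56.8 and 30.5 normalised counts in knockout 492, 499 and 501, against 59.0, 53.6 and 70.2 in control 490, 498 and 502. A single library, knockout 501, stood below the others, and the rest were interleaved. It rested there on 27 reads, and the exact Poisson interval for counting error alone ran from 20.1 to 44.3 normalised counts. That interval overlapped those of control 498 and knockout 499 (40.6 and 43.4 at their lower ends). It lay below those of control 490, control 502 and knockout 492 (45.6, 54.6 and 50.1 at their lower ends). The log2 fold change over all libraries was -0.32, the largest in size among the 10, with a limma SE of 0.25 and an interval from -0.86 to 0.23. Without knockout 501 it was 0.010. Primpol shares 4990 bases with Cenpu, which averaged 14.1 normalised counts over all libraries.

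**Figure D3:**
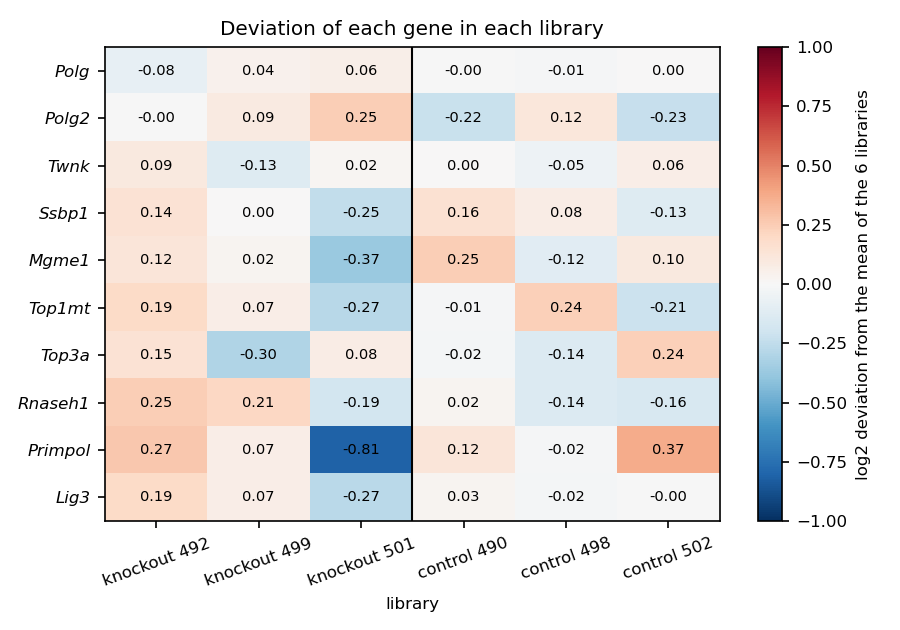
Log2 deviation of each gene (rows) in each library (columns, knockout left of control) from its mean over the 6 libraries, on the scale log2(normalised count + 1). The knockout 501 column reaches from -0.81 for Primpol to 0.25 for Polg2, whereas Polg varies from -0.08 to 0.06.

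The knockout libraries differed among themselves, and the same library was often the low one. Knockout 501 held the lowest value for 6 of the 10 genes, Ssbp1, Mgme1, Top1mt, Rnaseh1, Primpol and Lig3, while it was the lowest library for 17.5% of all tested features. It also held the highest value for Polg and Polg2. Knockout 492 was highest for 3, Twnk, Rnaseh1 and Lig3, and above the 6-library mean for 8 of the 10. The median deviation of the 10 genes was 0.14 in knockout 492, 0.055 in knockout 499 and -0.22 in knockout 501, against 0.012, -0.017 and -0.000041 in control 490, 498 and 502. The CV within the knockout group exceeded that within the control group for 9 of the 10, where 51.3% of all tested features did so, the exception being Polg2 (9.0% in knockout and 14.4% in control libraries). The excess was slight for Top1mt. All 10 genes were measured in the same libraries, with knockout 501 the lowest for 6, so the 9 are not independent of each other. The control CV was below that of read counting for Polg, Twnk, Top1mt, Rnaseh1 and Lig3, and the knockout CV for Polg2 and Top1mt. In control libraries it was 3.97% for Twnk, where counting gives 4.47%, and 7.17% for Rnaseh1, where counting gives 11.9%. Over the whole table the chi-square between libraries of a group, per degree of freedom, was 4.84 to 6.36 for knockout pairs, against 14.5 and 15.0 for the control pairs with control 490 and 3.52 for the third control pair. For Lig3 the CV was 15.9% in knockout and 1.64% in control libraries, where read counting gives 4.58%. Knockout 501 was also the shallowest library, at 11966300 reads outside mtDNA, and had the highest summed erythroid markers, 23640 normalised counts against 16887 and 20003 in the other knockout libraries and 17307 to 22619 in control libraries. The part of depth or of blood content in these values was not tested.

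**Figure D4:**
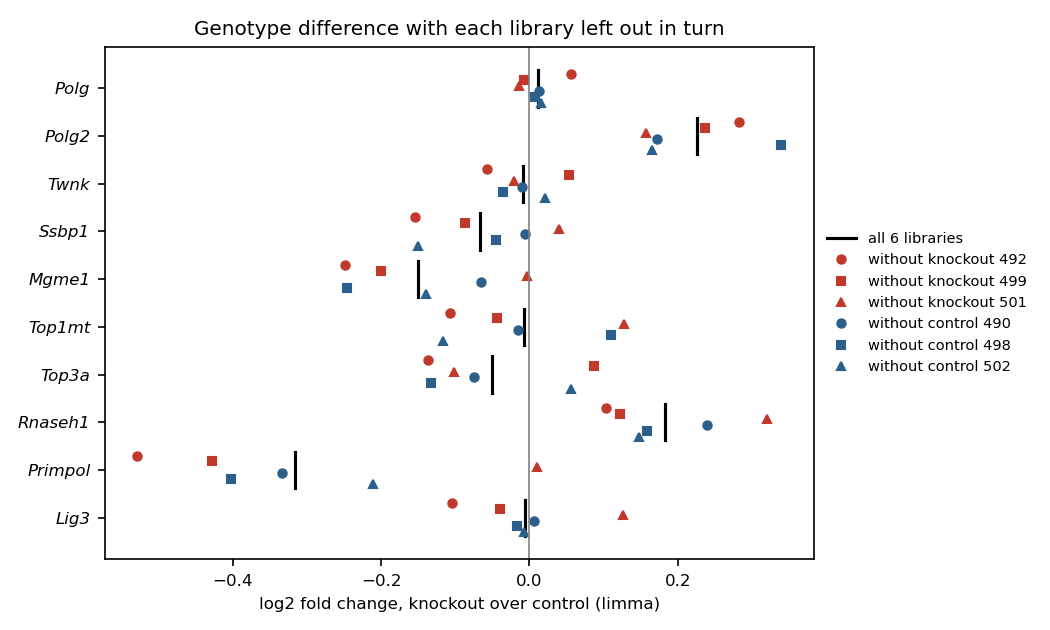
Limma log2 fold change of knockout over control (horizontal axis) for each gene with all 6 libraries (black bar) and with each library left out in turn (red, a knockout library left out; blue, a control library left out). Leaving out knockout 501 (red triangle) puts Primpol at 0.010, where all 6 libraries give -0.32, and Rnaseh1 at 0.32 and Lig3 at 0.13.

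Ratios within a library do not depend on how libraries were scaled, and 4 were compared by exact permutation tests, 2-sided, where 3 libraries against 3 cannot give a p below 0.1. The log2 ratio of Polg to Polg2, the catalytic to the accessory subunit, was 3.64 ± 0.077 in knockout and 3.86 ± 0.21 in control libraries (SD, n = 3 each), a difference of -0.22 with overlap (exact permutation p = 0.3, 0.6 adjusted over the 4). The log2 ratio of Ssbp1 to Twnk was -1.67 ± 0.21 in knockout and -1.61 ± 0.20 in control libraries, a difference of -0.060 (exact permutation p = 0.6, adjusted 0.8). Top1mt to Top1, its nuclear relative, gave -4.63 ± 0.21 in knockout and -4.67 ± 0.28 in control libraries, a difference of 0.041 (exact permutation p = 0.9, adjusted 0.9). Rnaseh1 to Rnaseh2b, a subunit of the other cellular RNase H, gave -0.031 ± 0.36 in knockout and 0.42 ± 0.10 in control libraries, a difference of -0.45 (exact permutation p = 0.2, adjusted 0.6). That difference came with Rnaseh2b at 83.7, 64.4 and 80.1 normalised counts in knockout 492, 499 and 501, against 57.2, 46.1 and 43.8 in control 490, 498 and 502, all knockout libraries above all controls. The limma log2 fold change of Rnaseh2b was 0.62 with an interval from 0.23 to 1.02, an unadjusted p of 0.0045 and an adjusted p of 1.00, so it was not called. It rested on 373 reads in all. Rnaseh2a and Rnaseh2c, subunits of the same enzyme, overlapped between the groups. Their limma log2 fold changes were 0.047 (interval from -0.23 to 0.33) and 0.18 (interval from -0.14 to 0.49).

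The genes around the replication machinery gave 0 limma calls among 87 tested members of 5 lists, with a gene shared by lists counted a single time. Factors of mtDNA transcription and of the nucleoid, the DNA-protein particle of mtDNA, had 0 called of 16, with 8 above and 8 below 0 and a median log2 fold change of 0.0074. Their smallest p-values belonged to Tfb1m, a methyltransferase of mitochondrial ribosomal RNA, at 104 ± 11.4 in knockout and 86.3 ± 11.5 normalised counts in control libraries (SD, n = 3 each), and Mterf2, of the mitochondrial termination factor family, at 413 ± 14.8 in knockout and 373 ± 33.6 in control libraries. Their log2 fold changes of 0.27 and 0.15 were 0.16 and 0.073 without control 490. Enzymes and carriers that supply deoxynucleotides had 0 called of 19 tested, with a median of 0.0057. Sucla2, a subunit of succinyl-CoA synthetase whose loss in humans depletes mtDNA, had 3406, 3301 and 3345 normalised counts in knockout 492, 499 and 501, against 3883, 4008 and 3873 in control 490, 498 and 502, without overlap. Its limma log2 fold change was -0.23 with an adjusted p of 0.187, whereas the authors' deposited table called it (adjusted p = 0.0167). Cmpk2, a mitochondrial nucleotide kinase, had a limma log2 fold change of 0.15 with an interval from -0.11 to 0.41, and it was 0.056 without control 498, 0.090 without knockout 492 and 0.23 without control 502.

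The list of base excision repair enzymes and nucleases had 0 called of 21 tested, 12 above and 9 below 0, with a median of 0.059. It holds Xrcc1 and Lig1, given here by their nuclear roles, so not every gene in it need be shared with mitochondria. Groups did not overlap in 5 of the 21, 2 higher and 3 lower, where 9.51% of all features showed no overlap. Lig1 was among the higher, and it is counted again in the nuclear list below. Xrcc1, the scaffold that binds DNA ligase III in the nucleus, had 154, 133 and 152 normalised counts in knockout 492, 499 and 501, against 172, 179 and 190.3 in control 490, 498 and 502, with every knockout library below every control. Its limma log2 fold change was -0.30 with an interval from -0.55 to -0.06, an unadjusted p of 0.017 and an adjusted p of 1.00. Neil1, a glycosylase that removes oxidised bases, averaged 62.8 ± 15.1 in knockout and 79.8 ± 6.62 in control libraries (SD, n = 3 each), with a log2 fold change of -0.37 that was not called and was -0.15 without knockout 499.

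The nuclear topoisomerases, ligases and RNases H had 0 called of 12, 9 above and 3 below 0, with a median of 0.074. Besides Rnaseh2b these included Lig1, the replicative ligase of the nucleus, which averaged 36.7 ± 2.71 in knockout and 27.1 ± 7.36 normalised counts in control libraries (SD, n = 3 each), without overlap and with a log2 fold change of 0.46 that was not called and was 0.22 without control 490. Top1 had a log2 fold change of -0.049 with an interval from -0.20 to 0.10. Nuclear replication and proliferation genes had 0 called of 20, 11 above and 9 below 0, with a median of 0.015. Prim2, the large subunit of the nuclear DNA primase, had a log2 fold change of 0.60 and Mcm4, of the replicative helicase, one of 0.20, and neither was called. Prim2 was at 0.33 without knockout 501 and 0.39 without control 502, and Mcm4 at 0.11 without knockout 499. The medians of the 5 lists also moved with single libraries, most for nuclear replication and proliferation, at -0.12 without control 490 and 0.12 without control 498.

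**Figure D5:**
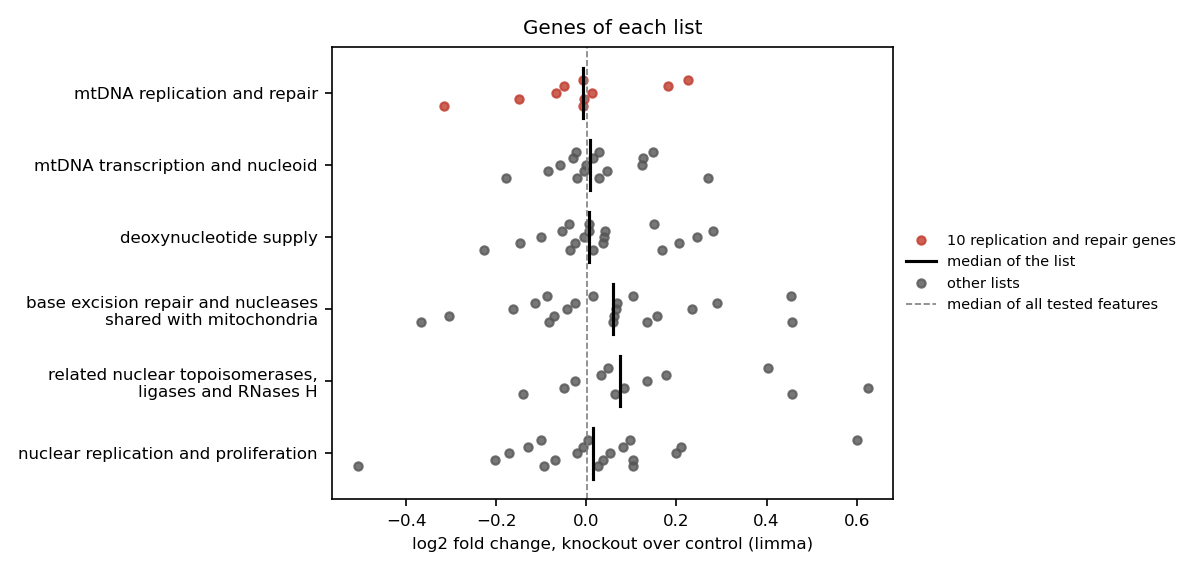
Limma log2 fold change of knockout over control (horizontal axis) for each tested gene of the 10 replication and repair genes (red) and of 5 other lists (grey), with the median of each list (black bar) and of all tested features (dashed line). The list medians lie between -0.0080 and 0.074, and the point farthest to the right is Rnaseh2b at 0.62.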

How the data were processed

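Total RNA of heart was measured in 3 knockout and 3 control libraries. The authors deposited normalised counts, a signal for every gene and library. The submitters' processing notes name DESeq2 1.22.2, R 3.5.2, featureCounts, bedtools and Bowtie2 2.3.4.1, and the builds mm10 and GRCm38, with no roles. In units of the smallest nonzero value of its library, 100% of the 156689 nonzero values were whole (tolerance 0.01), and these recovered reads were used for edgeR and DESeq2 only. The authors' deposited table gives log2 fold changes, a test score and p-values for the same comparison, printed only where it is named. Column names give a group and a library number. Libraries of 1 group differed beyond counting noise in every pair (chi-square per degree of freedom 3.52 to 15.0).

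Features with Ensembl identifiers were joined to symbols for 54686 of 54715, and all list genes matched. limma 3.58.1 with a trended prior was fitted in R 4.3.3 on log2(value + 1) with genotype as the only term, 2-sided, called at an adjusted p under 0.05. This scale understates changes of low genes. The fit was tested on simulated data. Alternatives were edgeR 4.0.16 quasi-likelihood, DESeq2 1.42.0, other pseudocounts, filters, scalings and priors, and leaving out each library. Values are not per length, so levels of different genes were not compared. Exact Poisson intervals, 95%, cover counting error only. The members and lists were chosen with earlier results of these data known. Besides the 10 genes, the text names Rexo2, the partners in the ratios and, for each list with no call, the 2 members of smallest p. Mrpl43, Rffl and Cenpu were named after their values were seen, as overlapping neighbours, and Snx5 as an adjacent one. Rnaseh2a, Rnaseh2c and the markers Adgre1, Mb and Pdgfra were also named after their values were seen. Positions and promoters are from RefSeq on GRCm38.p6, 1-based.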

Additional observations from a re-analysis of the deposited data

How the results depend on the processing

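The count of called genes among the 10 was 0 in all 18 alternatives, though not every alternative could call each gene. DESeq2 and the authors' deposited table gave nearly equal log2 fold changes and an adjusted p only to Polg, Twnk and Lig3. The filter at a mean of 50 left out Top1mt. Over all features the limma count of 4 became 12 without a filter and with robust moderation, 37 under equal totals, 0 without a trended prior and 33 by DESeq2 and in the authors' deposited table, and it ranged from 1 (without knockout 499, control 498 or control 502) to 8 (without control 490) when 1 library was left out. Among the other lists the 1 call under equal totals, by DESeq2 and in the authors' deposited table was Sucla2. Equal totals shift the median of all features to -0.069, and Polg to -0.058. Scaling to equal totals outside mtDNA gave 0.019 for Twnk, 0.019 for Top1mt, 0.021 for Lig3 and 0.025 for Mrpl43. Lig3 was 0.0098 by edgeR and 0.0078 by DESeq2 and in the authors' deposited table. With 1 library left out, the log2 fold change ran from -0.014 to 0.056 for Polg, -0.057 to 0.054 for Twnk, -0.15 to 0.039 for Ssbp1, -0.12 to 0.13 for Top1mt, -0.14 to 0.086 for Top3a, -0.53 to 0.010 for Primpol, -0.10 to 0.13 for Lig3 and -0.054 to 0.051 for Mrpl43, while Polg2 (0.16 to 0.34), Rnaseh1 (0.10 to 0.32) and Mgme1 (-0.25 to -0.0029) kept their sign. The ratio of Ssbp1 to Twnk ran from -0.17 to 0.061, Top1mt to Top1 from -0.073 to 0.20, Polg to Polg2 from -0.34 to -0.15 and Rnaseh1 to Rnaseh2b from -0.63 to -0.27. The causes of these shifts were not tested. No paired analysis was possible because the columns carry library numbers and not the replicate numbers of the labels. Top1mt, Primpol, Rnaseh1 and Polg2 had under 100 reads in every library. The spread within groups was below that of read counting for Top1mt in both groups, whereas for Primpol the CV was 35.8% in knockout and 13.9% in control libraries, where counting gives 13.3%.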
